A study of Homo sapiens with 4 samples.

Results

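The organic ion and monocarboxylate transporters are membrane carriers of the SLCO, SLC22 and SLC16 families. They were chosen by name, as the protein-coding genes whose symbol is SLCO, SLC22A or SLC16A followed by the usual member number, and 48 of the 58735 genes in the deposited table met that rule, out of 19951 protein-coding genes. They comprised 14 SLC16, 22 SLC22 and 12 SLCO genes. RNA was sequenced from cells labelled HFL1, the name of a line of human fetal lung fibroblasts. There were 2 libraries labelled KO for calumenin and 2 libraries labelled WT. The study's design text speaks of calumenin knockout or knockdown in fibroblasts and asks about senescence and fibrosis programmes. The labels give no agent beyond the KO, and neither the guide nor whether the KO libraries came from 1 clone is given in the sources used here. Nothing in the labels says that same-group libraries were separate cultures, and the p-values therefore reflect library-to-library spread that may be technical.

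SLC16 genes encode the monocarboxylate transporters (MCTs), several of which move lactate, pyruvate and ketone bodies together with protons, while other members carry thyroid hormone, aromatic amino acids, creatine or carnitine. SLC22 genes encode the organic cation, carnitine and organic anion transporters (OCT, OCTN and OAT), best known for handling drugs, monoamines, carnitine and urate in kidney and liver. SLCO genes encode the organic anion transporting polypeptides (OATPs), sodium-independent carriers of bile acids, thyroid hormones, prostaglandins and conjugated steroids.

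Reads recovered from the FPKM values numbered between 16622382 and 17699349 in the KO libraries and between 16173899 and 17715774 in the WT libraries. CALU, the targeted gene, had 6.59 and 5.95 FPKM in the KO libraries against 87.7 and 81.8 FPKM in the WT libraries, 13.5-fold lower in KO. Of 12 fibroblast markers, 8 were under 1 FPKM in every library, with COL1A2 and POSTN at 0, and their summed level was 561 to 813 FPKM in KO and 1011 to 1401 FPKM in WT. Most of that sum was S100A4, which had 449 and 723 FPKM in KO and 933 and 1352 FPKM in WT and was not called. Of the 4 fibroblast markers tested 1 rose and 0 fell: COL1A1 was 12.1-fold higher in KO (adjusted p = 0.00410), having passed the filter through KO alone, while VIM and THY1 were 1.55-fold and 1.51-fold higher without a call. The 8 simple epithelial markers, all at 1 FPKM or more in some library, summed to 1922 to 2295 FPKM in KO and 1041 to 1180 FPKM in WT, and 4 of them rose and 1 fell. Among them KRT8 had 731 and 926 FPKM in KO and 349 and 425 FPKM in WT. EPCAM was low, at 2.04 and 2.04 FPKM in KO and 1.76 and 1.57 FPKM in WT. CLDN4, the marker that fell, had 0.947 and 0.973 FPKM in KO and 4.57 and 5.27 FPKM in WT. Of the fibroblast markers, VIM was abundant, with 106 and 84.6 FPKM in KO and 76.5 and 46.8 FPKM in WT. With most fibroblast markers under 1 FPKM, such keratin levels are at odds with the fibroblast label, while the VIM and EPCAM levels are not. The identity of the cells was not tested. The 5 cycling markers, which all rose, summed to 258 to 282 FPKM in KO and 19.5 to 37.2 FPKM in WT. All 5 endothelial and all 5 lung epithelial markers were under 1 FPKM in every library, as were 4 of 5 leukocyte, 7 of 9 hepatocyte and 5 of 6 renal proximal tubule markers. The part of these marker differences in the transporter results was not tested. In such bulk libraries, fewer cells of a type and less RNA per cell cannot be told apart.

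A gene was tested where it reached 1 FPKM in at least 2 libraries, and calls were made with limma at an adjusted p (Benjamini-Hochberg) under 0.05 on log2(FPKM + 1), the scale of every log2 change here. Low genes change less on that scale than in FPKM, and each fold given is the ratio of the group means in FPKM. The filter left 23 of the 48 transporters, 12 of SLC16, 6 of SLC22 and 5 of SLCO. In KO, 3 of the 23 rose and 6 fell, while 12.1% and 11.1% of the 14100 genes tested rose and fell. The 9 transporters called were 39.1% of those tested, beside 23.3% of all genes tested. Of these 9, 4 had passed the filter through WT alone, namely SLC16A6, SLC16A7, SLC16A11 and SLCO4C1. SLCO1B1, which was not called, had passed it through KO alone. All of these had to differ between the groups, so the counts are given as descriptions only.

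The KO libraries lay above both WT libraries for 5 of the 23 tested transporters and below both for 13, while the groups overlapped for 5. Of these, SLC16A6, SLC16A7, SLC16A11 and SLCO4C1 had to lie below and SLCO1B1 above, each having passed the filter through a single group. Over all tested genes the KO libraries lay apart from the WT libraries for 65.7%, above them for 34.4% and below them for 31.3%. The median log2 change of the 23 was -0.21, beside 0.03 over all genes tested. It was -0.43 for SLC16, -0.03 for SLC22 and -0.19 for SLCO genes. Of these tested genes, 3 of 12 in SLC16 and 2 of 5 in SLCO had passed the filter through a single group, and none in SLC22. Since the single-group genes are included, the separation counts, the median of the 23 and the family medians are descriptions only. Calls that held under every alternative run were those of SLCO4A1, SLC22A3 and SLC16A6. With no filter on low values these 3 were the calls that remained, 1 higher and 2 lower in KO, beside 0.566% and 0.597% of all genes tested in that fit. With 1 library left out, between 1 and 2 transporters were called higher and between 4 and 5 lower in KO, the count of 1 arising without WT replicate 1, WT replicate 2 or KO replicate 1. The share of all tested genes called higher was then 3.58% and 4.8% without WT replicates 1 and 2, and 8.56% and 9.37% without KO replicates 1 and 2. The share called lower was 3.81% and 4.35% without the WT replicates and 7.62% and 8.94% without the KO replicates.

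**Figure D1:**
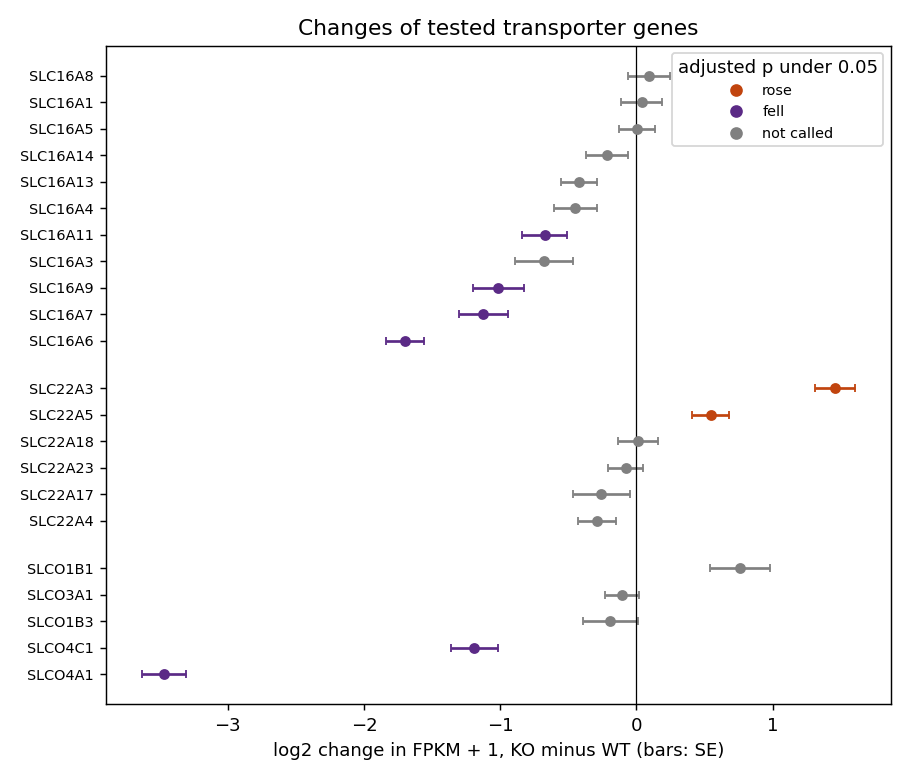
Log2 change in FPKM + 1, KO minus WT, of tested transporters, with bars of 1 standard error and the genes called at an adjusted p under 0.05 marked. SLC22A3 lies farthest to the right at 1.46, and SLCO4A1 farthest to the left at -3.47.

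Among the lactate and pyruvate carriers of the SLC16 family, the MCT2 gene fell in KO and the MCT1 gene did not pass the test. SLC16A1, which encodes the widely expressed lactate carrier MCT1, had 13.2 and 11.6 FPKM in KO and 13.1 and 11.1 FPKM in WT. The groups overlapped, and the log2 change was 0.04 ± 0.15 (SE; adjusted p = 0.868), with its sign turning negative in 5 of the 13 alternatives. SLC16A3, which encodes MCT4, the lactate exporter of glycolytic cells, had 4.53 and 7.16 FPKM in KO and 10.1 and 9.42 FPKM in WT. Both KO libraries were lower, with a log2 change of -0.68 ± 0.21 that missed the threshold (adjusted p = 0.0715) and passed it without KO replicate 2 (adjusted p = 0.0236) and in limma-voom on recovered reads (adjusted p = 0.0154 on the same genes and 0.0115 with at least 10 reads). SLC16A3 overlaps CSNK1D on the opposite strand, a kinase gene with 17.0 and 19.4 FPKM in KO and 23.7 and 22.8 FPKM in WT. On its own strand it overlaps AC132872.3, which had 4.45 and 3.69 FPKM in KO and 3.05 and 4.36 FPKM in WT. Whether the counting used strand is not given in the sources used here, so reads of overlapping partners cannot be told apart. The ratio of SLC16A3 to SLC16A1 levels, both per length, was 0.342 and 0.616 in KO and 0.770 and 0.852 in WT.

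SLC16A7 encodes MCT2, a high-affinity pyruvate and lactate carrier. It had 0.263 and 0.0849 FPKM in KO against 1.49 and 1.61 FPKM in WT, from 63 and 19 reads in KO and 372 and 360 reads in WT. Both KO libraries were far below both WT libraries, a level 8.90-fold lower (log2 change -1.12 ± 0.18 SE; adjusted p = 0.0134). SLC16A7 had passed the filter through WT alone. The fold was 18.3 without KO replicate 1 and 5.89 without KO replicate 2. SLC16A8, which encodes the MCT3 of the retinal pigment epithelium, had 1.24 and 1.30 FPKM in KO and 1.07 and 1.19 FPKM in WT (adjusted p = 0.703). SLC16A11, which encodes a carrier linked to pyruvate transport and lipid metabolism, had 0.532 and 0.658 FPKM in KO and 1.56 and 1.52 FPKM in WT. This gene had also passed the filter through WT alone. It fell 2.59-fold (log2 change -0.67 ± 0.16 SE; adjusted p = 0.0372), and the call was lost without any 1 of the 4 libraries, at adjusted p between 0.0671 and 0.143.

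SLC16A13, the convergent neighbour of SLC16A11 on chromosome 17, encodes a less studied MCT and was the more abundant of the pair. Its levels were 15.3 and 16.7 FPKM in KO and 21.0 and 22.5 FPKM in WT, lower in both KO libraries without passing the threshold (log2 change -0.42 ± 0.13 SE; adjusted p = 0.0756). The genes lie at chr17:7036075-7040121 on the plus strand and chr17:7041630-7043923 on the minus strand, 1508 bases apart on GRCh38. The ratio of SLC16A13 to SLC16A11 was 28.8 and 25.4 in KO and 13.5 and 14.8 in WT.

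SLC16A6 showed the second largest log2 fall of the tested transporters. It encodes MCT7, known from zebrafish liver as a ketone body exporter, and lies at chr17:68267026-68291267. Its levels were 0.759 and 0.842 FPKM in KO against 4.90 and 4.78 FPKM in WT, from 54 and 56 reads in KO and 363 and 318 reads in WT. The KO libraries were 6.04-fold lower (log2 change -1.70 ± 0.14 SE; adjusted p = 0.00365). SLC16A6 had passed the filter through WT alone. The opposite-strand gene ARSG, a sulfatase gene that overlaps it, had 1.26 and 1.18 FPKM in KO and 1.91 and 1.39 FPKM in WT. Its pseudogene SLC16A6P1 had 0.323 and 0.461 FPKM in KO and 0.207 and 0.288 FPKM in WT.

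SLC16A9 encodes MCT9, a carnitine and creatine carrier, and had 1.13 and 0.854 FPKM in KO against 3.54 and 2.56 FPKM in WT. It fell 3.07-fold (log2 change -1.01 ± 0.19 SE; adjusted p = 0.0183), and the groups did not overlap. The call was lost without WT replicate 1 (adjusted p = 0.0915) and without KO replicate 2 (adjusted p = 0.0528). SLC16A12, which encodes the creatine carrier MCT12, stayed below the filter with 0.130 and 0.101 FPKM in KO and 0.0340 and 0.0757 FPKM in WT. SLC16A10 encodes TAT1, a carrier of aromatic amino acids and thyroid hormone, and was also below the filter with 0.229 and 0.212 FPKM in KO and 0.0683 and 0.103 FPKM in WT. Limma-voom on recovered reads, with genes of at least 10 reads, called SLC16A10 higher in KO (adjusted p = 0.0377), in a fit that called 24.2% of all genes it tested.

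The SLC16 members that follow have no settled endogenous substrate. SLC16A4 was the most abundant of the family, with 33.0 and 27.4 FPKM in KO and 43.3 and 39.5 FPKM in WT, lower in both KO libraries without passing the threshold (log2 change -0.45 ± 0.16 SE; adjusted p = 0.0943). Limma-voom on recovered reads called it lower, at an adjusted p of 0.0443 on the same genes and 0.0435 with at least 10 reads. SLC16A5 had 21.6 and 21.0 FPKM in KO and 22.1 and 20.4 FPKM in WT, overlapping levels (adjusted p = 0.975). SLC16A14 had 1.25 and 1.14 FPKM in KO and 1.62 and 1.47 FPKM in WT (adjusted p = 0.358). Summed over the family, SLC16 levels were 106 and 101.1 FPKM in KO and 132 and 125 FPKM in WT.

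**Figure D2:**
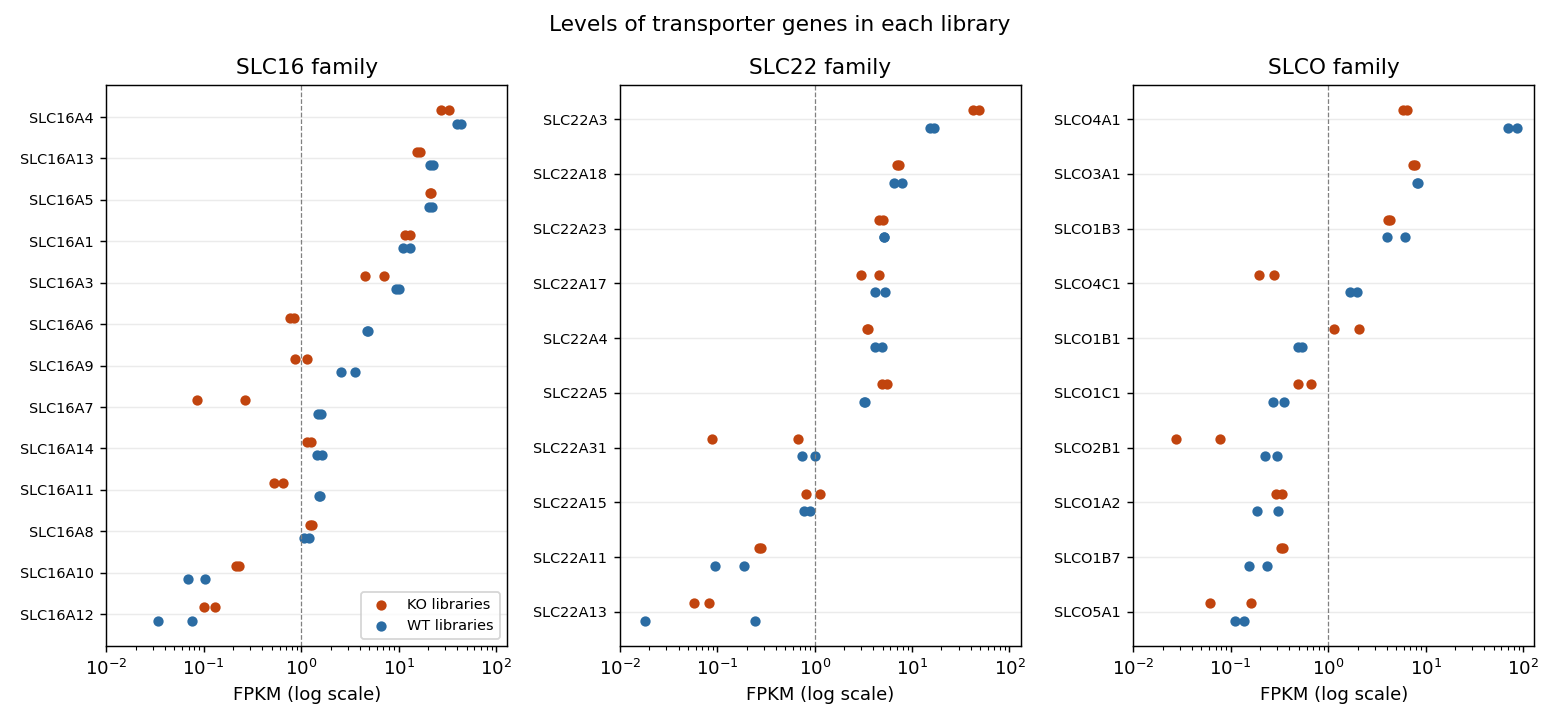
FPKM per library on a log10 axis for transporters that reached 0.1 FPKM in some library, by family, with a point for each KO and WT library and a dashed line at 1 FPKM. SLC22A3 has the highest KO levels, 49.2 and 42.6 FPKM, and SLCO4A1 lies at 5.91 and 6.43 FPKM in KO against 87.4 and 69.9 FPKM in WT.

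SLC22A3 was the most abundant transporter of the set in KO. It encodes OCT3, a low-affinity carrier of monoamines and other organic cations outside neurons, and lies at chr6:160348268-160452581. Its levels were 49.2 and 42.6 FPKM in KO and 16.8 and 15.3 FPKM in WT. Both KO libraries were well above both WT libraries, 2.86-fold higher on average (log2 change 1.46 ± 0.15 SE; adjusted p = 0.00468). It made up 65.0% and 60.9% of the summed SLC22 level in KO and 38.4% and 36.0% in WT. Its neighbour on chromosome 6, SLC22A2, encodes the renal OCT2 and had 4 and 4 reads in KO and 2 and 2 reads in WT.

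The carnitine and ergothioneine carriers are encoded side by side on chromosome 5, with a gap of 25545 bases. SLC22A5, at chr5:132369752-132395614, encodes OCTN2, the high-affinity carnitine transporter, and had 5.55 and 4.87 FPKM in KO and 3.17 and 3.31 FPKM in WT. It was higher in both KO libraries, 1.61-fold (log2 change 0.55 ± 0.14 SE; adjusted p = 0.0398). That call was lost without any 1 library (adjusted p between 0.0551 and 0.243), with a filter of 0.3 FPKM (adjusted p = 0.0583) and with scaling to total reads (adjusted p = 0.05002).

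SLC22A4, at chr5:132294443-132344206, encodes OCTN1, the ergothioneine transporter, and had 3.44 and 3.56 FPKM in KO and 4.18 and 4.86 FPKM in WT. Both KO libraries were lower, without passing the threshold (log2 change -0.29 ± 0.14 SE; adjusted p = 0.183). The ratio of SLC22A5 to SLC22A4 was 1.61 and 1.37 in KO and 0.760 and 0.681 in WT, so the order of the pair differed between the groups. The difference between the changes of the genes was not tested. SLC22A4 overlaps P4HA2, a collagen prolyl hydroxylase gene with 7.46 and 7.64 FPKM in KO and 11.7 and 10.1 FPKM in WT, on the opposite strand. Both transporters overlap the opposite-strand transcript MIR3936HG, which had 2.65 and 3.09 FPKM in KO and 1.92 and 2.35 FPKM in WT.

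The promoters of this pair are shown because the changes of these neighbours had opposite signs. Each spans 250 bases before to 50 bases after a RefSeq start on GRCh38.p14, at chr5:132369460-132369759 for SLC22A5 and chr5:132294144-132294443 for SLC22A4, both on the plus strand. Capitals mark GGGCGG, the GC box letters, or its reverse complement CCGCCC, searched on both strands.
SLC22A5: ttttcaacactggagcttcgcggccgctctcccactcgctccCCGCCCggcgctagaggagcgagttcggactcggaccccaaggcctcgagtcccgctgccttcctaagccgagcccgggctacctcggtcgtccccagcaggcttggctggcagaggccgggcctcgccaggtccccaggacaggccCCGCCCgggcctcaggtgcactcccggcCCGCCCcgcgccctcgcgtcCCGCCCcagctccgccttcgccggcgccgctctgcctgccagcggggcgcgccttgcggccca
SLC22A4: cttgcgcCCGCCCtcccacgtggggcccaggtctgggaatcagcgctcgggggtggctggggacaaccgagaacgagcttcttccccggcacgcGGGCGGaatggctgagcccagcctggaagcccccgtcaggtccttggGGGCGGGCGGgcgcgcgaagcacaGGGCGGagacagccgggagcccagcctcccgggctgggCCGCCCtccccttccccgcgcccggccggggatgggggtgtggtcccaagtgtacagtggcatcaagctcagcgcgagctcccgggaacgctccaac
The SLC22A5 window held 4 matches and the SLC22A4 window 6, a pair of which overlapped each other. G and C made up 75.3% of the SLC22A5 bases and 73.3% of the SLC22A4 bases. The motif was found in 45.0% of all 35116 RefSeq promoters, so its presence in both is a description of the sequence. RefSeq promoters were matched by symbol for 29 of the 48 transporter genes.

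The other tested SLC22 members did not pass the threshold. SLC22A17, which encodes a receptor for lipocalin-2, had 3.003 and 4.59 FPKM in KO and 4.14 and 5.23 FPKM in WT (adjusted p = 0.416). SLC22A18, an imprinted gene of chromosome 11, had 7.37 and 7.06 FPKM in KO and 7.91 and 6.47 FPKM in WT (adjusted p = 0.972). SLC22A23, an orphan carrier, had 5.03 and 4.57 FPKM in KO and 5.09 and 5.14 FPKM in WT (adjusted p = 0.706). Levels of SLC22A17 and SLC22A18 overlapped between the groups, and SLC22A23 was lower in both KO libraries by less than its standard error.

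Of the 22 SLC22 genes, 16 stayed below the filter, several of them near or below detection. SLC22A15, an orphan carrier, had 1.12 and 0.807 FPKM in KO and 0.901 and 0.772 FPKM in WT, and SLC22A31 had 0.0875 and 0.678 FPKM in KO and 1.01 and 0.748 FPKM in WT. SLC22A11, which encodes the placental and renal OAT4, had 0.284 and 0.269 FPKM in KO and 0.0944 and 0.187 FPKM in WT. SLC22A13, which encodes the urate and nicotinate carrier OAT10, had 0.0572 and 0.0815 FPKM in KO and 0.0183 and 0.244 FPKM in WT. The renal urate exchanger gene SLC22A12 had 3 reads, all in WT replicate 1, and SLC22A14 had 6 reads over the 4 libraries. SLC22A9, SLC22A25 and SLC22A7 had 1 read each. SLC22A6 and SLC22A8, which encode the main renal organic anion carriers OAT1 and OAT3, had 0 reads in every library, as did SLC22A10, SLC22A16 and SLC22A24. A floor of 3 reads per library allows those 5 genes a level of up to 0.0215 to 0.0761 FPKM, depending on gene length and covering counting error only. Summed over the family, SLC22 levels were 75.6 and 69.9 FPKM in KO and 43.7 and 42.5 FPKM in WT.

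SLCO4A1 had the largest change of the tested transporters. It encodes OATP4A1, a broadly expressed carrier of thyroid hormones, prostaglandins and taurocholate, and lies at chr20:62642445-62685785. Its levels were 5.91 and 6.43 FPKM in KO against 87.4 and 69.9 FPKM in WT, from 419 and 427 reads in KO and 6462 and 4642 reads in WT. The KO libraries were 12.7-fold lower (log2 change -3.47 ± 0.16 SE; adjusted p = 0.00154). In WT it was the most abundant of the 48 genes and ranked above SLC16A4, and in KO it ranked at place 9. The antisense gene SLCO4A1-AS1 had 0.223 and 0.438 FPKM in KO and 2.07 and 1.79 FPKM in WT.

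Because SLCO4A1 held 82.8% and 81.7% of the summed SLCO level in WT, it set the family total. That total was 21.9 and 20.6 FPKM in KO and 106 and 85.5 FPKM in WT. Without SLCO4A1 the rest of the family summed to 15.99 and 14.2 FPKM in KO and 18.1 and 15.6 FPKM in WT, ranges that overlapped. SLCO3A1, which encodes the prostaglandin and thyroxine carrier OATP3A1, led the family in KO with 7.77 and 7.47 FPKM, beside 8.42 and 8.16 FPKM in WT (adjusted p = 0.575).

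**Figure D3:**
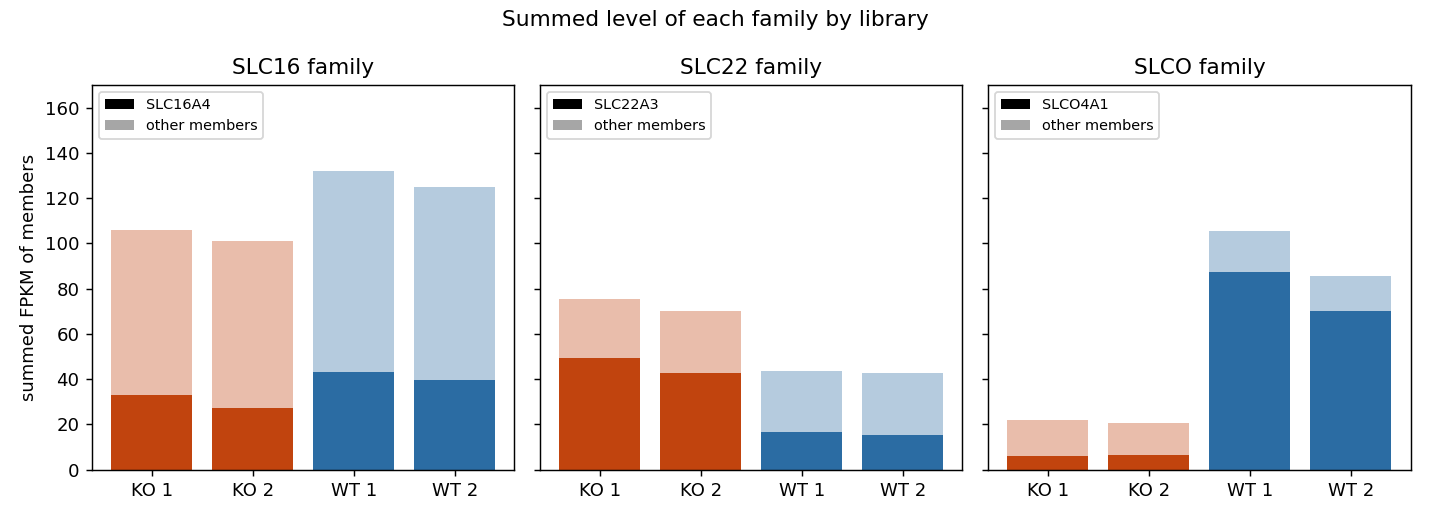
Summed FPKM of each transporter family in each library, as bars from 0, KO libraries in orange and WT libraries in blue, with SLC16A4, SLC22A3 and SLCO4A1 in the darker shade. The SLC22 sums are higher in KO (75.6 and 69.9 FPKM) than in WT (43.7 and 42.5 FPKM), while the SLC16 and SLCO sums are lower in KO.

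SLCO4C1, which encodes OATP4C1, a renal carrier of digoxin and thyroid hormone, had 0.278 and 0.195 FPKM in KO against 1.98 and 1.67 FPKM in WT. The reads behind these levels were 26 and 17 in KO and 193 and 146 in WT. The KO libraries were 7.72-fold lower, with no overlap (log2 change -1.19 ± 0.17 SE; adjusted p = 0.0104). SLCO4C1 had passed the filter through WT alone. SLCO6A1, a testis gene next to it on chromosome 5, had 3 reads in all, each in a WT library.

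The chromosome 12 cluster holds SLCO1C1, SLCO1B3, SLCO1B7, SLCO1B1 and SLCO1A2. SLCO1B1 and SLCO1B3 encode OATP1B1 and OATP1B3, the bile acid, bilirubin and statin uptake carriers of hepatocytes, and are close sequence relatives, so reads may have been split between them. SLCO1B1 had 2.07 and 1.15 FPKM in KO and 0.541 and 0.493 FPKM in WT, higher in both KO libraries without passing the threshold (log2 change 0.76 ± 0.22 SE; adjusted p = 0.0616). It passed without KO replicate 2 (adjusted p = 0.0394) and in limma-voom on recovered reads (adjusted p = 0.0318 on the same genes and 0.0222 with at least 10 reads). SLCO1B3 had 4.34 and 4.14 FPKM in KO and 6.17 and 3.98 FPKM in WT, where the groups overlapped (adjusted p = 0.537), and without WT replicate 1 its change turned positive at 0.07. On its own strand, SLCO1B1 overlaps AC022335.1, which had 1.14 and 0.286 FPKM in KO and 0.0641 and 0.285 FPKM in WT. The part of AC022335.1 in the SLCO1B1 values was not tested. The ratio of SLCO1B1 to SLCO1B3 was 0.478 and 0.278 in KO and 0.0876 and 0.124 in WT. Hepatocyte markers summed to 7.96 and 8.84 FPKM in KO and 4.13 and 5.33 FPKM in WT, with APOB at 0. FGB carried that sum, with 7.38 and 8.11 FPKM in KO and 1.42 and 2.79 FPKM in WT. Of the 2 hepatocyte markers tested FGB rose and SERPINA1, which passed the filter through WT alone, fell 22.5-fold (adjusted p = 0.00811), and ASGR1, below the filter, was 4.25-fold lower in KO. The part of these markers in the SLCO1B1 values was not tested.

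The low members of the cluster were SLCO1C1, a brain thyroxine carrier gene, SLCO1B7 and SLCO1A2. SLCO1C1 had 0.670 and 0.490 FPKM in KO and 0.271 and 0.351 FPKM in WT, and SLCO1B7 had 0.344 and 0.324 FPKM in KO and 0.155 and 0.238 FPKM in WT. Both were higher in the KO libraries, without a test. SLCO1A2, a bile acid and steroid conjugate carrier gene, had 0.332 and 0.291 FPKM in KO and 0.185 and 0.307 FPKM in WT.

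SLCO2B1, an intestinal and hepatic carrier gene, had 0.0276 and 0.0766 FPKM in KO and 0.222 and 0.301 FPKM in WT, below the filter. These levels came from 5 and 13 reads in KO and 42 and 51 reads in WT. Limma-voom on recovered reads with at least 10 reads called SLCO2B1 lower in KO (adjusted p = 0.00676). That fit called 24.2% of all genes it tested. In the limma fit with no filter on low values the adjusted p was 0.133. SLCO5A1 had 0.160 and 0.0611 FPKM in KO and 0.137 and 0.110 FPKM in WT, and the prostaglandin transporter gene SLCO2A1 had 1 read.

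Over all 48 transporters the summed level was 204 and 192 FPKM in KO and 281 and 253 FPKM in WT. The number of transporters at 1 FPKM or more was 20 and 18 in KO and 23 and 22 in WT. Of the 23 tested, 8 had group means within 1.25-fold of each other, beside 40.6% of all genes tested.

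Genes that make, break down or escort the same substrates were taken from 12 lists of 105 genes. Of the 64 tested, 20 rose and 9 fell in KO, with a median log2 change of 0.19 beside 0.03 over all genes tested. The shares of all 14100 tested genes that rose and fell, 12.1% and 11.1%, are the background for these counts and for those of each list, most of which hold few tested genes. Of the 64, 6 had passed the filter through a single group and so had to differ. Of these, 5 were called, namely EMB, BAAT, HNF4G, XDH and PDZK1. The lists were also chosen with earlier results of these data known, so all list counts and the median are descriptions only. Ancillary proteins of the MCTs numbered 3, of which 1 fell. EMB encodes embigin, an escort of MCT2 to the membrane, and had 0.576 and 0.383 FPKM in KO and 4.47 and 3.03 FPKM in WT, 7.82-fold lower (log2 change -1.67 ± 0.20 SE; adjusted p = 0.00685). With no filter on low values the EMB adjusted p was 0.0584. In that fit only 3 rises and 1 fall of listed genes remained, namely BAAT, PDK4 and DIO2 higher and LCN2 lower. All other calls of listed genes were lost there. BSG encodes basigin, the escort of MCT1 and MCT4, and had 104 and 135 FPKM in KO and 119 and 114 FPKM in WT (adjusted p = 0.933).

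Of 10 tested lactate and pyruvate genes, 4 rose and 1 fell. PDK4, a kinase that inactivates pyruvate dehydrogenase, had 53.0 and 42.3 FPKM in KO and 7.89 and 8.41 FPKM in WT, 5.85-fold higher (adjusted p = 0.00286). MPC2, a subunit of the mitochondrial pyruvate carrier, had 15.3 and 17.8 FPKM in KO and 8.54 and 8.73 FPKM in WT (adjusted p = 0.0136). PDHB, a pyruvate dehydrogenase subunit gene, was 1.75-fold higher in KO (adjusted p = 0.0164), and the D-lactate dehydrogenase gene LDHD was 2.21-fold lower (adjusted p = 0.0215). The calls of MPC2, PDHB, LDHD and PDHA1, the other gene that rose, were lost without WT replicate 1 or WT replicate 2, that of LDHD also without KO replicate 1 and that of PDHA1 without KO replicate 2, at adjusted p between 0.0546 and 0.253. The sodium-coupled monocarboxylate carrier genes SLC5A8 and SLC5A12 had 0 reads in every library.

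Ketone body genes gave 1 rise among 3 tested. ACAT1, which makes acetoacetyl-CoA, had 9.88 and 11.6 FPKM in KO and 6.14 and 5.07 FPKM in WT (adjusted p = 0.0194). Of 4 tested creatine genes 1 rose and 1 fell. GATM, which catalyses the first step of creatine synthesis, was 2.72-fold lower in KO (adjusted p = 0.0107), and the creatine kinase gene CKB was 1.68-fold higher (adjusted p = 0.0306). The ACAT1, CKB and GATM calls were lost without WT replicate 1 or WT replicate 2, and those of ACAT1 and CKB also without KO replicate 2. The adjusted p was then between 0.0511 and 0.134 for ACAT1 and between 0.0503 and 0.186 for the creatine genes.

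Thyroid hormone genes gave 1 rise and 1 fall among 5 tested. DIO2, which encodes the deiodinase that activates thyroxine, had 9.59 and 9.06 FPKM in KO and 0.592 and 1.30 FPKM in WT, 9.84-fold higher (adjusted p = 0.00388). SLC7A5, which encodes the amino acid and thyroid hormone carrier LAT1, had 120.03 and 125 FPKM in KO and 214 and 213 FPKM in WT, 1.74-fold lower (adjusted p = 0.0193). The DIO2 fold was 15.7 without WT replicate 2, and the SLC7A5 call was lost without WT replicate 1, WT replicate 2 or KO replicate 1, at adjusted p between 0.0591 and 0.143.

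Among 8 tested prostaglandin genes, 2 rose and 2 fell. HPGD, which degrades prostaglandins, had 47.8 and 37.6 FPKM in KO and 15.9 and 14.5 FPKM in WT, 2.81-fold higher (adjusted p = 0.00631). The HPGD call was lost in limma with no filter on low values (adjusted p = 0.0520). PTGS2, the inducible cyclooxygenase gene, had 22.5 and 15.9 FPKM in KO and 42.2 and 37.2 FPKM in WT, 2.06-fold lower (adjusted p = 0.0211). PTGES, a prostaglandin E synthase gene, was 1.76-fold lower (adjusted p = 0.0238), and PLA2G4A, which releases arachidonic acid, was 1.92-fold higher (adjusted p = 0.0301). The PTGS2, PTGES and PLA2G4A calls were lost without WT replicate 1 or WT replicate 2, and those of PTGES and PLA2G4A also without KO replicate 1, at adjusted p between 0.0582 and 0.171.

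Bile acid genes gave 3 rises among 8 tested. BAAT, which joins bile acids to taurine or glycine, had 14.6 and 12.2 FPKM in KO and 0.0970 and 0.270 FPKM in WT, 73.1-fold higher (adjusted p = 0.00154), and 138-fold without WT replicate 2. NR1H4, the bile acid receptor FXR gene, had 4.39 and 3.16 FPKM in KO and 0.574 and 1.28 FPKM in WT, 4.08-fold higher (adjusted p = 0.0176), and 6.58-fold without WT replicate 2. ABCG2, an efflux pump gene for urate and conjugates, was 2.36-fold higher (adjusted p = 0.0125). The call of ABCG2 was lost without WT replicate 1 or WT replicate 2 and that of NR1H4 without WT replicate 1 or KO replicate 1, at adjusted p between 0.0603 and 0.0646.

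Of 7 tested carnitine genes 1 rose. ALDH9A1, which acts in carnitine synthesis, had 22.3 and 22.3 FPKM in KO and 14.0 and 13.7 FPKM in WT (adjusted p = 0.0214), with the call lost without WT replicate 1 or WT replicate 2 at adjusted p between 0.163 and 0.166. CRAT, the carnitine acetyltransferase gene, had 21.6 and 21.4 FPKM in KO and 22.1 and 19.7 FPKM in WT (no call). Of 4 tested cation and monoamine genes 2 rose. SLC29A4, which encodes the monoamine carrier PMAT, had 19.1 and 19.2 FPKM in KO and 9.07 and 7.41 FPKM in WT (adjusted p = 0.00782), and MAOA, which oxidises monoamines, was 2.06-fold higher in KO (adjusted p = 0.0392). The MAOA call was lost with a filter of 0.3 FPKM. The SLC29A4 call was lost without WT replicate 2 and the MAOA call without WT replicate 1, WT replicate 2 or KO replicate 1, at adjusted p between 0.0536 and 0.176.

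The urate and lipocalin list had 3 tested genes, of which 1 rose and 2 fell. LCN2 encodes lipocalin-2, the ligand of the SLC22A17 product, and had 3.36 and 5.08 FPKM in KO and 78.4 and 101.2 FPKM in WT, 21.3-fold lower (adjusted p = 0.00199). XDH, which makes urate, was 6.85-fold lower (adjusted p = 0.0205), and PDZK1, a scaffold of apical transporters, was 3.41-fold higher (adjusted p = 0.0263). The PDZK1 call was lost without any 1 library and the XDH call without WT replicate 1, KO replicate 1 or KO replicate 2, at adjusted p between 0.0520 and 0.104.

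Of 9 tested regulators of transporter genes, 4 rose and 1 fell. HNF4G, a nuclear receptor gene, had 2.22 and 2.10 FPKM in KO and 0.866 and 0.660 FPKM in WT, 2.83-fold higher (adjusted p = 0.0198) and FOXA2, a pioneer factor gene of endoderm, 1.53-fold higher (adjusted p = 0.0385). RXRA, a partner of nuclear receptors including FXR, was 1.64-fold lower (adjusted p = 0.0205). The calls of HNF4G and HNF4A, another gene that rose, were lost without any 1 library. Those of FOXA2 and RXRA were lost without WT replicate 1 or WT replicate 2, and that of FOXA2 also without KO replicate 2. The adjusted p of these lost calls was between 0.0530 and 0.257.

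**Figure D4:**
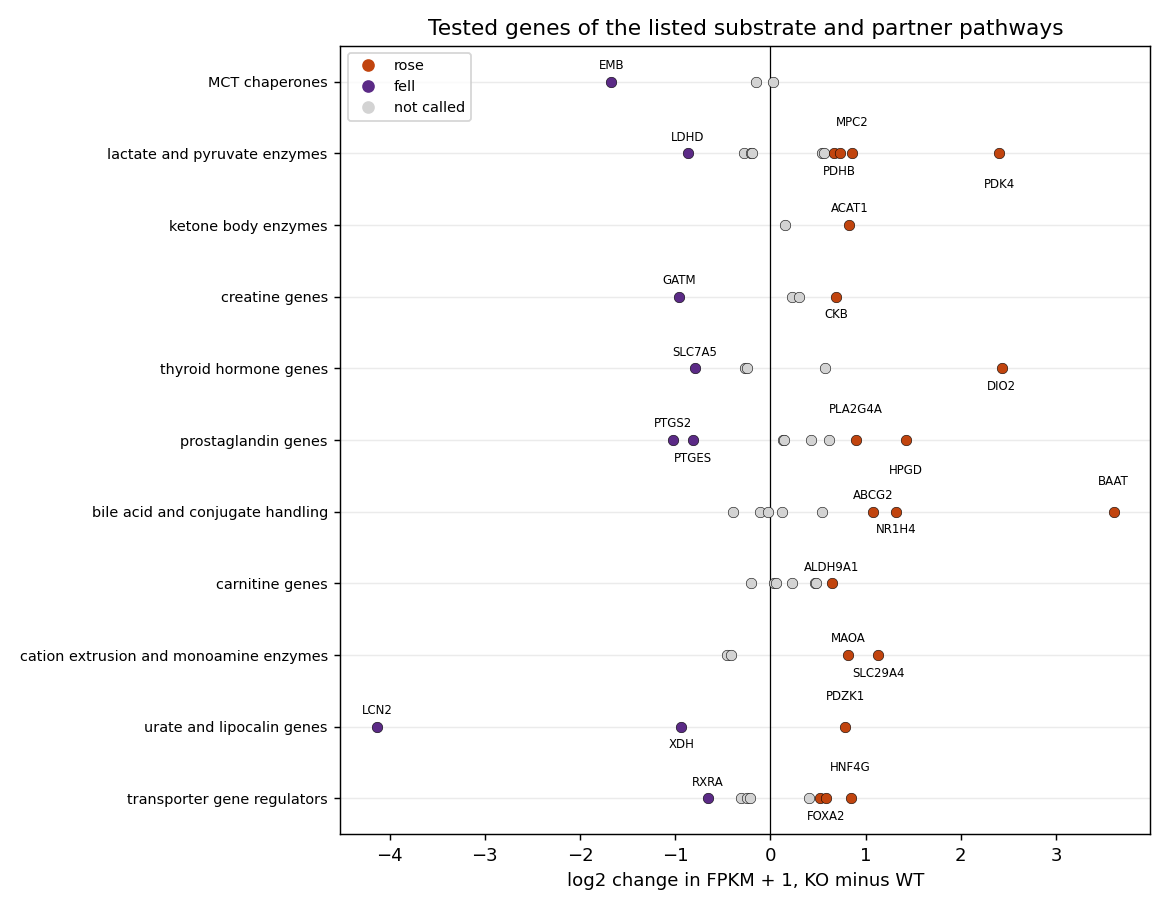
Log2 change in FPKM + 1, KO minus WT, of tested genes of each listed pathway, coloured by call. BAAT (73.1-fold higher in KO) and LCN2 (21.3-fold lower in KO) lie at the ends of the range.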

How the data were processed

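The authors deposited a table of FPKM, and its columns for 2 KO and 2 WT HFL1 libraries were analysed. Sequencing was paired-end on a NovaSeq instrument, per the labels' protocols, and the aligner was HISAT2 2.0.5, per the submitters' processing notes, which name hg38 and mm10. The sources used here do not name the counting tool, its use of strand or the annotation. All 58735 genes matched GENCODE coordinates on GRCh38. Reads were recovered from FPKM times gene length, which came out whole for 100% of values (tolerance 0.01).

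Values were analysed as log2(FPKM + 1) with limma 3.58.1 in R 4.3.3, without a replicate block. The prior variance followed the mean level, with 3.54 prior and 2 residual degrees of freedom. The 14100 genes at 1 FPKM or more in at least 2 libraries were fitted together and p-values were adjusted by Benjamini-Hochberg over all of them. Simulated data with known changes were used to test the script. With 2 libraries a group, the smallest p of a two-sided exact permutation test is 0.333, so none was used. Floors were set at 3 reads per library. Alternatives changed the pseudocount (0.1 and 0.5), the filter, the scaling, the block, the libraries used and the model. The edgeR and DESeq2 fits planned as alternatives were not run. The deposited unit is FPKM, although whole reads could be recovered from it, and limma-voom on those reads was added after seeing the data.

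The transporters and gene lists were chosen with earlier results of these data known. Named genes were CALU, every tested transporter, lower ones reaching 0.1 FPKM, genes overlapping a transporter and up to 4 genes of each list, by size of change among those called. PDHA1 and HNF4A, called but outside that rule, were named after their values were seen. A few genes within the rule are not reported here, although they stay in the fit, the counts and the sums. Promoter sequences are from RefSeq on GRCh38.p14.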

Additional observations from a re-analysis of the deposited data

How the results depend on the processing

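SLCO4A1, SLC22A3 and SLC16A6 kept their calls under all 13 alternatives. Over the 23 tested transporters, 247 alternative values kept direction and side of the threshold, 22 lost a call, 12 gained one and 18 turned sign. The planned edgeR and DESeq2 fits were not run, and limma-voom on recovered reads was added in their place after seeing the data. With no filter on low values, 183 genes rose and 193 fell, 0.566% and 0.597% of the 32306 tested. Among them were 1 and 2 of the transporters, and 3 and 1 of the listed pathway genes. Limma-voom with at least 10 reads called 2261 genes higher and 2964 lower, 10.5% and 13.7% of the 21579 it tested. That fit called 5 transporters higher and 9 lower, and 25 listed genes higher and 14 lower. Leaving out 1 library gave 505 to 1321 rises and 537 to 1260 falls over all genes, 1 to 2 rises of transporters, and 5 to 14 rises and 2 to 9 falls of listed genes. The cause of these differences was not tested. The replicate numbers are not stated to pair libraries, and deviations of same-numbered libraries from their group means correlated at 0.411. With the replicate block, 2968 genes rose and 2577 fell, 21.0% and 18.3% of the 14100 tested. Among them were 4 and 9 of the transporters and 29 and 11 of the listed genes. The block also called SLC16A3 (adjusted p = 0.0232), SLC16A4 (0.0226) and SLC16A13 (0.0255) lower and SLCO1B1 (0.0227) higher. Values that turned sign were those near 0. SLC16A1 gave -0.0045 under total scaling, -0.0068 and -0.0053 under limma-voom on the same genes and with at least 10 reads, and -0.071 to 0.15 without 1 library. SLC16A5 gave -0.0298 under quantile normalization, -0.0396 under total scaling, -0.0434 and -0.0419 under limma-voom, and -0.0472 to 0.062 without 1 library. SLC22A18 gave -0.0253 under quantile normalization, -0.0343 under total scaling, -0.0412 and -0.0396 under limma-voom, and -0.12 to 0.14 without 1 library. BSG gave -0.073 under quantile normalization, -0.0229 under total scaling, -0.0253 and -0.0241 under limma-voom, and -0.16 to 0.21 without 1 library. CRAT gave -0.0025, -0.0088, -0.0114 and -0.0099 under those settings and -0.0413 to 0.12 without 1 library. SLCO1B3 ranged between -0.45 and 0.072 without 1 library. Depth limits the genes with under 30 reads a library, such as SLCO1B7 and SLC16A12.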

Other observations

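Genes that overlap a transporter on either strand, or share sequence with one, had the following levels. AL355488.1, antisense to SLC16A4, had 2.20 and 1.56 FPKM in KO and 0.865 and 0.878 FPKM in WT. SLC22A18AS had 1.60 and 1.85 FPKM in KO and 1.17 and 1.40 FPKM in WT, and PSMG4, which overlaps SLC22A23, had 1.11 and 1.59 FPKM in KO and 1.01 and 1.19 FPKM in WT. AC022335.1, which overlaps SLCO1B1 and SLCO1B7 on their own strand, had 1.14 and 0.286 FPKM in KO and 0.0641 and 0.285 FPKM in WT. SLC16A1-AS1 had 0.383 and 0.458 FPKM in KO and 0.438 and 0.493 FPKM in WT. The pseudogene SLC22A20P had 0.430 and 0.598 FPKM in KO and 0.454 and 0.659 FPKM in WT.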
